A study of Mus musculus with 27 samples.

Results

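Glycolysis and the response to low oxygen were followed in mouse V6.5 embryonic stem cells through 36 genes. They are 4 transporters of glucose and lactate, 9 enzymes that take glucose to triose phosphate, 9 enzymes from triose phosphate to lactate, 4 regulators of the flux and 10 genes known to be induced by hypoxia. They were chosen by name, for these roles and with earlier results of these data known. Each was found in all 8 tables of 25209 genes. The tables compare WT cells with 2 clones, KO4 and KO8, in which a terminator placed after exon 3, brought in by donor vectors with mCherry or with puromycin resistance, cuts the Zfp512b transcript short. Naive cells (day 0, in medium with inhibitors and LIF) gave 3 libraries of each genotype. Primed cells (day 2, in serum with LIF), cardiomyocyte cultures (CM, day 7.5, from hanging-drop embryoid bodies with vitamin C) and neural progenitor cultures (NPC, day 10, from embryoid bodies with retinoic acid) gave 2 each. Each clone is 1 line grown from a selected colony, and no WT clone that had been edited and selected was sequenced, so that effects of cloning, of selection and of Zfp512b loss cannot be told apart. Nothing states that the libraries of a group came from separate cultures, and p-values therefore measure only the spread between these libraries, which may be technical.

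Glycolysis splits glucose into pyruvate, which pyruvate dehydrogenase passes on to the mitochondria or lactate dehydrogenase turns into lactate for export. When oxygen is scarce, the hypoxia-inducible factors (HIF) escape destruction by prolyl hydroxylases of the Egln family, bind DNA and raise the transcription of glucose transporters, of nearly every glycolytic enzyme and of genes such as Vegfa and Bnip3. Pluripotent stem cells are known for high glycolysis, and the balance between glycolysis and respiration shifts as they pass from the naive to the primed state and as they mature into cardiomyocytes or neurons.

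The tables hold no count per library. They hold for each gene the mean normalised signal over the WT and KO libraries compared (the base mean), from which the whole reads of every library could be worked out for genes with few enough reads. This succeeded for 16 of the 36 genes at 1 stage or more, for 1 gene in naive cells, 16 in primed cells, 6 in NPCs and 7 in CMs. Only these could be tested. The other 20, among them the 4 transporters and Gapdh, Pgk1, Eno1 and Ldha, have too many reads for a unique solution and are described by their base means without any replicate error. Libraries held about 34.4 to 39.7 megareads (M) in naive cells and 15.1 to 19.3 M at the other stages. Zfp512b itself was lower in every KO library where its reads could be recovered. In primed cells it stood at 55.8 and 53.2 reads per 1000000 (RPM) in WT, 12.8 and 11.2 in KO4 and 8.98 and 10.7 in KO8. These RPM use a library size scaled by median of ratios rather than the read total of the library. In CMs it stood at 57.3 and 61.3 in WT, 11.9 and 10.5 in KO4 and 9.62 and 8.57 in KO8. Markers were summed as base means over WT and clone libraries, per 1000000 of all base means, also written RPM. Cardiomyocyte markers summed to 2010 RPM in the CM table of KO4 and 2950 in that of KO8, against 17.8 to 57.3 at the other stages. Neural markers summed to 522 and 607 in NPCs, where mesenchymal markers summed to 1120 and 1100. In bulk RNA, fewer cells of a type and less RNA per cell cannot be told apart.

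The glycolytic genes spanned a wide range of levels, which were compared as normalised reads per kb of exon and per 1000000 reads (RPKM), as the mean of both tables of a stage. The stages were normalised separately by the authors, and the levels across stages are a description with no test. Together the 36 genes took 1.17 to 1.2% of all reads in naive cells, 1.36 to 1.37% in primed cells, 1.23 to 1.31% in NPCs and 1.45 to 1.54% in CMs. The share of the 10 hypoxia-induced genes moved more, from 0.0288 and 0.0335% in naive cells and 0.0359 and 0.0392% in primed cells to 0.189 and 0.170% in NPCs and 0.0844 and 0.114% in CMs. Of the 36 genes, 17 had their highest level in NPCs, 8 in CMs, 7 in primed cells and 4 in naive cells. These levels average WT with KO libraries, and the top stage depended on the clone for some genes, such as Slc16a3, Bnip3 and Pfkfb4. No share of all genes stands beside these counts.

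**Figure D1:**
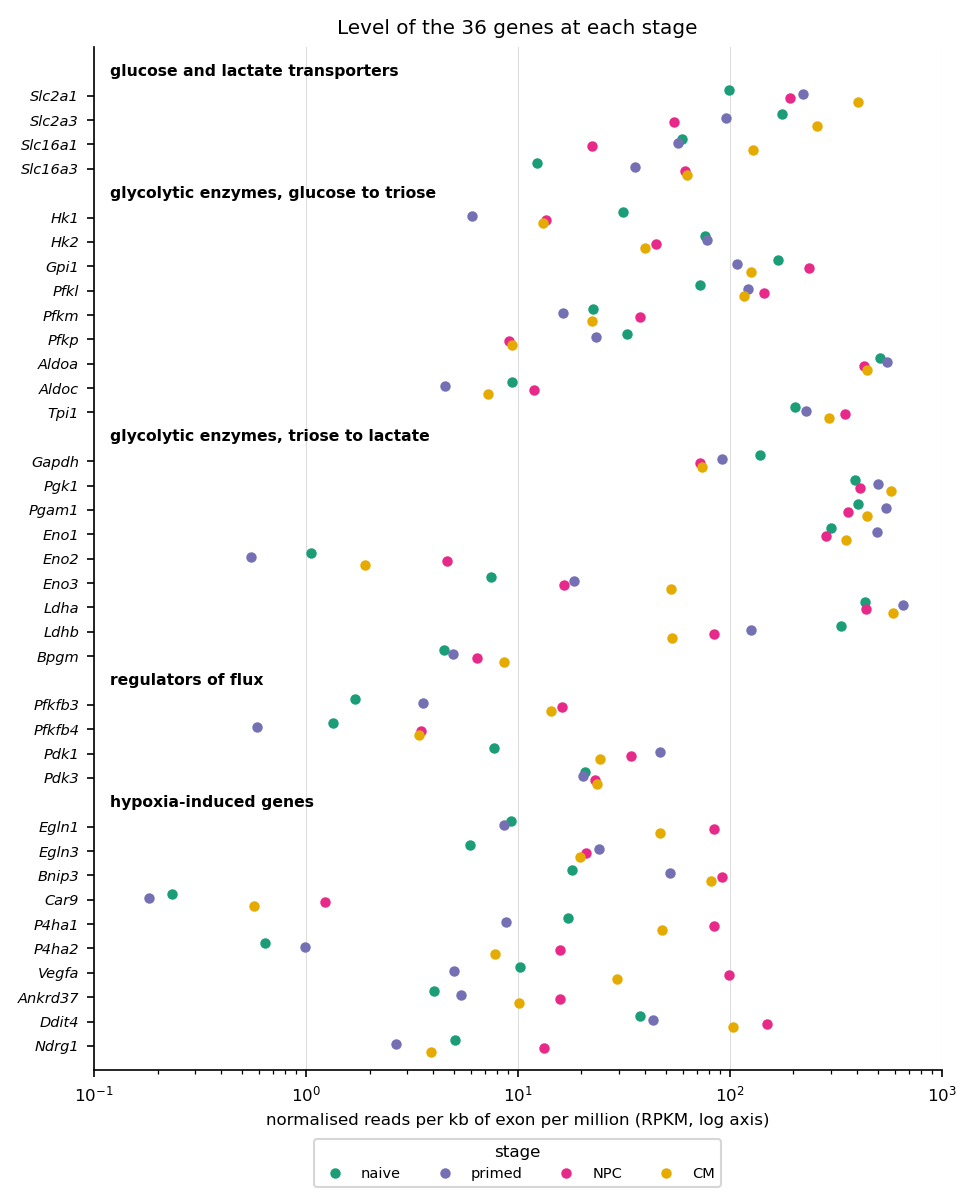
Level of each of the 36 genes at the 4 stages, in RPKM on a log axis, as the mean over both tables of a stage (WT with KO4 and WT with KO8), grouped by role. The points of Aldoa, Pgk1, Pgam1, Eno1 and Ldha lie close together between 285 and 654, while those of Vegfa and P4ha2 are spread over 19.8-fold and 24.8-fold.

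Among the transporters, Slc2a1 and Slc2a3, which bring glucose into the cell, reached 405 and 258 RPKM in CMs. Slc2a1 had its lowest level in naive cells (99.5) and Slc2a3 in NPCs (54.6). Slc16a1, a carrier of lactate and other monocarboxylates, was also highest in CMs (129) and lowest in NPCs (22.5). Slc16a3, the lactate exporter of glycolytic cells, stood at 12.3 in naive cells, 35.8 in primed cells, 61.6 in NPCs and 62.9 in CMs. By these means all 4 transporters had their highest level in CM cultures, but for Slc16a3 the order depended on the clone averaged with WT. Its base mean was 5544 in CMs and 5663 in NPCs with KO4, and 6718 and 5534 with KO8.

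Several enzymes for which a single isozyme serves most tissues were abundant and changed little across stages. Aldolase Aldoa ranged over 1.28-fold, phosphoglycerate kinase Pgk1 over 1.49-fold, phosphoglycerate mutase Pgam1 over 1.50-fold, lactate dehydrogenase Ldha over 1.50-fold and triose phosphate isomerase Tpi1 over 1.72-fold. Gapdh, often used as a constant reference gene, went from 139 in naive cells to 91.8 in primed cells, 72.8 in NPCs and 74.4 in CMs. Aldoa, Tpi1, Gapdh, Pgk1, Pgam1, Eno1 and Ldha have processed copies elsewhere in the mouse genome, and how reads that match several places were counted was not stated, so their levels are uncertain.

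The alternative isozymes varied more. Hexokinase Hk1 had its highest level in naive cells (31.4 RPKM) and its lowest in primed cells (6.12), a 5.13-fold range, whereas Hk2 stayed between 40.0 and 78.6. Ldhb, the isozyme that favours the return of lactate to pyruvate, was at 337 in naive cells and at 53.6 in CMs. The muscle enolase Eno3 was at 7.51 in naive cells and 53.1 in CMs, and the neuronal enolase Eno2 at 0.555 in primed cells and 4.66 in NPCs. These 2 enolases were thus highest in the culture aimed at their tissue, which Ldhb and the muscle phosphofructokinase Pfkm (37.7 in NPCs and 22.5 in CMs) were not, and Eno1 had the higher level at every stage, 285 to 494.

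The regulators Pfkfb3 and Pfkfb4 make the bisphosphate that activates phosphofructokinase, and Pdk1 and Pdk3 shut pyruvate dehydrogenase by phosphorylation. Pfkfb3 went from 1.71 in naive cells to 16.1 in NPCs and 14.4 in CMs, and Pdk1 was at 7.70 in naive cells and 46.8 in primed cells. Pdk3 hardly varied, at 20.3 to 23.7.

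By these means, 9 of the 10 hypoxia-induced genes had their highest level in NPCs, and the exception was Egln3, with 24.1 in primed cells. For Bnip3 the order depended on the clone averaged with WT. Its base mean was 3747 in NPCs and 2754 in CMs with KO4, and 3383 and 4045 with KO8. Vegfa, the chief growth factor for blood vessels, was at 10.3 in naive cells, 4.99 in primed cells, 99 in NPCs and 29.4 in CMs. P4ha2, a collagen prolyl hydroxylase, ran from 0.641 in naive cells to 15.9 in NPCs, and its relative P4ha1 from 8.82 in primed cells to 84.6 in NPCs. Egln1, the main oxygen sensor that marks HIF for destruction, went from 8.62 in primed cells to 84.3 in NPCs. Car9, a carbonic anhydrase of the cell surface and a classic hypoxia marker, was the lowest of all at every stage, from 0.183 in primed cells to 1.23 in NPCs.

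For 5 genes whose reads were recovered at all of primed, NPC and CM stages, differences between stages in WT cells were tested with limma voom on 18 libraries scaled together. Between primed cells and NPCs 4 of 5 differed, where 70.3% of all genes tested did. Pfkfb4, Eno2, Car9 and Ankrd37 were higher in NPCs, by 2.36 (SE 0.32), 2.36 (SE 0.43), 2.12 (SE 0.57) and 0.76 (SE 0.32) on the log2 scale. Car9 rested on 13 and 5 reads in primed WT, and primed libraries alone did not pass the filter of 10 reads in 2 libraries. It entered this fit through NPC and CM libraries, where it was higher, so its call is a description only. The call of Ankrd37 (adjusted p = 0.0423) was lost in 12 of 20 other settings, with 0.33 (adjusted p = 0.432) without NPC WT library 2, and that of Car9 without primed WT library 2 (1.42, adjusted p = 0.0653). Between primed cells and CMs 3 of 5 differed, against 67.1% of all genes, with Pfkfb4 higher in CMs by 1.83 (SE 0.33), Eno2 by 1.34 (SE 0.47) and Bpgm by 0.59 (SE 0.11). Bpgm makes the bisphosphoglycerate that lowers the oxygen affinity of haemoglobin. Between NPCs and CMs 3 of 5 differed, against 50.6% of all genes, with Bpgm higher in CMs by 0.82 (SE 0.11) and Eno2 and Pfkfb4 lower (log2 difference -1.02, SE 0.27, and -0.54, SE 0.18). The Eno2 calls that involve CMs were lost without single WT libraries. From primed to CM these were primed WT library 2 (0.97, adjusted p = 0.152) and CM WT library 2 (1.03, adjusted p = 0.103), and from NPC to CM these were NPC WT library 2 (-0.81, adjusted p = 0.0599) and CM WT library 1 (-0.71, adjusted p = 0.0770). Pfkfb4 lost its call from NPC to CM without NPC WT library 1 (-0.41, adjusted p = 0.121) or CM WT library 1 (-0.38, adjusted p = 0.157). Over the 3 contrasts 8 calls were higher and 2 lower, and 5 were higher without primed WT library 2, 1 lower without NPC WT library 2 and 0 lower without CM WT library 1.

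In naive cells only Car9 had few enough reads to be tested. Its RPM values were 0.404, 0.785 and 0.550 in WT, 0.572, 0.460 and 0.436 in KO4 and 0.554, 0.470 and 0.526 in KO8, so that both clones lay within the WT range. The log2 fold change was -0.22 in KO4 (SE 0.35, interval of 2 SE from -0.92 to 0.49, adjusted p = 0.720) and -0.13 in KO8 (SE 0.34, interval -0.81 to 0.55, adjusted p = 0.822), at a depth that leaves changes of this size undetectable. In this fit 13.4% of 2352 genes were called in KO4 and 13.6% in KO8.

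The 2 clones could be set against each other for every gene through the base means. Both tables of a stage share their WT libraries, so the ratio of the KO8 base mean to the KO4 base mean, once the scales are matched, is a lower bound on how far the mean of one clone exceeds that of the other. It has no replicate error and no test. In naive cells, 28 of 35 members with a base mean of at least 100 had the higher mean in KO8, where 48.4% of all 10925 such genes did. A ratio near 1 does not show that the clones are alike, since the shared WT reads dilute it. Only Slc16a3 reached a bound of 1.25-fold in favour of KO8 (1.28), where 1.54% of all genes did, and only Pdk1 in favour of KO4 (1.30), where 0.513% did. All 9 hypoxia-induced genes above this limit had the higher mean in KO8, from 1.08-fold for Ndrg1 to 1.24-fold for Ankrd37 and Ddit4.

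In primed cells the question was which of these genes the clones share as changed, and 15 of the 16 genes with recovered reads passed the filter of 10 reads in 2 libraries. All calls were downward. KO4 had 6 of 15 lower and 0 higher, where 9.30% of all 9481 genes tested were lower and 9.16% higher. KO8 had 4 of 15 lower and 0 higher, against 6.18% lower and 7.75% higher among all genes, and without KO8 library 1 it had 2 lower and 2 higher. The 4 genes called lower in KO8 were also called lower in KO4, and 4.21% of all genes were lower in both clones, which were compared with the same WT libraries. They were Hk1 and Aldoc among the enzymes and Ndrg1 and Vegfa among the hypoxia-induced genes. Markers of cell state moved in the same libraries. Of 3 tested markers of primed pluripotency, 2 were lower in both clones, Otx2 (log2 fold change -0.62 in KO4 and -0.40 in KO8) and Lef1 (-1.18 and -0.62), as was the only tested naive marker, Tbx3 (-0.55 and -0.65). Of 5 tested neural markers, Sox1 (1.33 and 0.87) and Nes (0.33 and 0.73) were higher and Map2 (-0.64 and -0.51) lower in both, and 2 of 9 tested cardiomyocyte markers were lower in both. Over whole lists, the primed markers (6 genes, 0 at 0) summed to 1740 RPM in the KO4 table and 1830 in the KO8 table, and the neural markers (9 genes, 1 and 2 at 0) to 104 in each. The part of these markers in the calls of the glycolytic and hypoxia-induced genes was not tested.

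Hk1, a hexokinase that binds mitochondria (mm9 chromosome 10, 61731603 to 61842656, minus strand), had 64.2 and 62.5 RPM in WT, 38.3 and 36 in KO4 and 42.2 and 45.0 in KO8. The 3 genotypes did not overlap, with WT highest. Its log2 fold change was -0.77 in KO4 (SE 0.08, adjusted p = 6.2e-12) and -0.54 in KO8 (SE 0.07, adjusted p = 9.62e-08). Aldoc, the aldolase known from brain (chromosome 11, 78136470 to 78141283, plus strand), had 19.0 and 16.4 in WT, 10.4 and 11.3 in KO4 and 12.2 and 13.4 in KO8. It changed by -0.70 in KO4 (SE 0.14, adjusted p = 7.91e-05) and by -0.46 in KO8 (SE 0.13, adjusted p = 0.0109). All 4 KO libraries lay below both WT libraries, but the call in KO8 was lost without WT library 1 (-0.35, adjusted p = 0.169), KO8 library 1 (-0.39, adjusted p = 0.137) or KO8 library 2 (-0.53, adjusted p = 0.0510).

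Ndrg1, which is induced by hypoxia and differentiation and restrains growth and spread in many tumours (chromosome 15, 66760883 to 66801202, minus strand), fell most of these. It had 24.1 and 24.2 RPM in WT, 7.27 and 8.16 in KO4 and 10.7 and 16.2 in KO8, so that KO4 was lowest and the KO8 libraries differed widely. Its log2 fold change was -1.64 in KO4 (SE 0.15, adjusted p = 1.12e-12) and -0.86 in KO8 (SE 0.13, adjusted p = 1.26e-06). Vegfa (chromosome 17, 46153942 to 46169326, minus strand) had 25.3 and 23.6 in WT, 18.1 and 18.5 in KO4 and 17.2 and 18.7 in KO8. The clones overlapped each other and lay below WT, with -0.42 in KO4 (SE 0.11, adjusted p = 0.00353) and -0.44 in KO8 (SE 0.11, adjusted p = 0.00315). Without WT library 1 the call in KO4 was lost (-0.37, adjusted p = 0.0527), and without KO8 library 1 that in KO8 (-0.38, adjusted p = 0.0698).

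**Figure D2:**
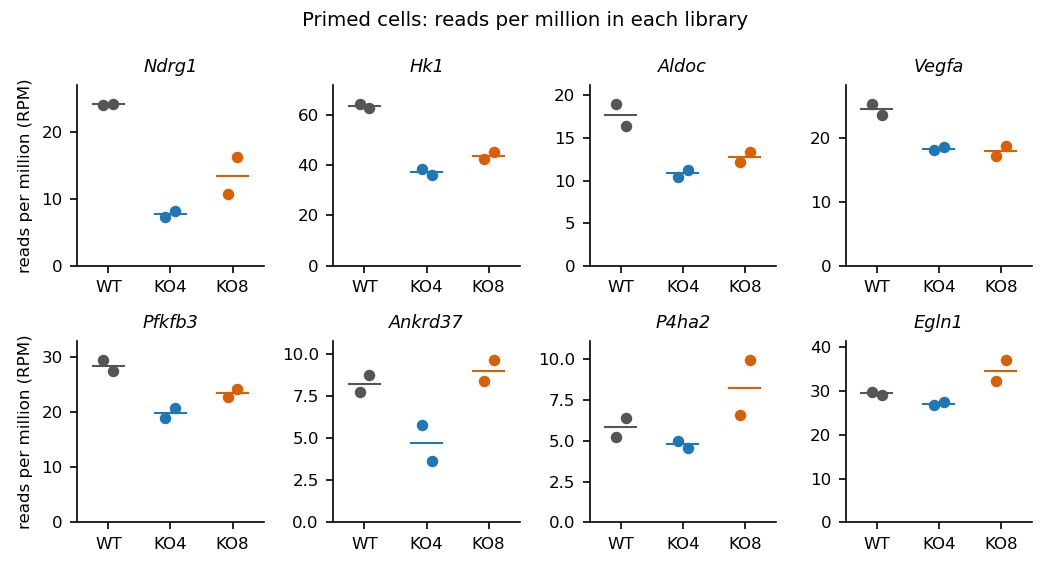
RPM of 8 genes in each primed library (points), with the mean of each genotype (line, n = 2), on axes that start at 0. Ndrg1, Hk1, Aldoc, Vegfa and Pfkfb3 have every KO library below both WT libraries, while Ankrd37 is low in KO4 alone and Egln1 and P4ha2 are highest in KO8.

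The 2 genes called in KO4 alone were a regulator and a hypoxia-induced gene. Pfkfb3 (chromosome 2, 11393057 to 11423728, minus strand) had 29.4 and 27.5 RPM in WT, 18.9 and 20.8 in KO4 and 22.7 and 24.3 in KO8. It fell by 0.52 on the log2 scale in KO4 (SE 0.10, adjusted p = 0.000141), and in KO8 the value was -0.27 (SE 0.10, adjusted p = 0.0593). The clones were not shown to differ (0.24, interval of 2 SE from 0.03 to 0.46, adjusted p = 0.296). Ankrd37, an ankyrin repeat protein that HIF induces (chromosome 8, 47082256 to 47085221, minus strand), had 7.74 and 8.76 in WT, 5.77 and 3.63 in KO4 and 8.38 and 9.63 in KO8. Its fold change in KO4 was -0.85 (SE 0.21, adjusted p = 0.00197), and it lost the call without KO4 library 2 (-0.51, adjusted p = 0.159).

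The direct contrast of the clones called 4 of the 15 genes higher in KO8 than in KO4, where 1.74% of all genes were, and all 4 are hypoxia-induced genes. The differences were 0.98 for Ankrd37 (SE 0.21, adjusted p = 0.00234), 0.79 for Ndrg1 (SE 0.17, adjusted p = 0.00276), 0.77 for P4ha2 (SE 0.21, adjusted p = 0.0295) and 0.36 for Egln1 (SE 0.09, adjusted p = 0.0223). P4ha2 had 5.24 and 6.42 RPM in WT, 4.99 and 4.58 in KO4 and 6.58 and 9.93 in KO8. Egln1 had 29.9 and 29.0 in WT, 26.8 and 27.5 in KO4 and 32.4 and 37.0 in KO8. None of the 4 calls held without KO8 library 2, where the differences were 0.87, 0.47, 0.46 and 0.25 (adjusted p = 0.0951, 0.383, 0.566 and 0.451). Ankrd37 without KO4 library 2 (0.64, adjusted p = 0.191), and Egln1 and P4ha2 without either KO4 library, also missed the threshold. By base means, 24 of 33 members had the higher mean in KO8 in primed cells, where 50.7% of all genes did. A bound of 1.25-fold was reached by Ankrd37 and P4ha2 in favour of KO8 (1.33 each, against 0.384% of all genes) and by 0 members in favour of KO4 (against 0.242%). Both genes were already called in the contrast above, from the same reads.

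Ankrd37 and Egln1 lie on chromosome 8, the only members there. The 397 tested genes of that chromosome had a median log2 fold change of 0.44 in KO4 and 0.46 in KO8 in primed cells, where the median of all genes was -0.00 and -0.01. At the other stages the chromosome's medians were 0.51 to 0.55. The part of this shift in the values of Ankrd37 and Egln1 was not tested. In primed cells both genes lay below the median of their chromosome in both clones, Ankrd37 at -0.85 and 0.13 and Egln1 at -0.12 and 0.24.

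The remaining 7 tested genes of primed cells passed the test in neither clone and in no contrast of the clones. Eno3 came closest, at 28.2 and 28.9 RPM in WT against 33.8 in each KO4 library and 34.7 and 31.8 in KO8, with log2 fold changes of 0.24 (adjusted p = 0.0502) and 0.21 (adjusted p = 0.114). Pfkm, the muscle phosphofructokinase, was at 54.2 and 50.7 in WT, 48.2 and 47.5 in KO4 and 44.5 and 46.9 in KO8. P4ha1, Pdk3, Bpgm, Pfkfb4 and Eno2 had values between -0.92 and 0.24, with Eno2 the most negative in KO8 (adjusted p = 0.0937). Eno2 rested on 1.06 to 3.64 RPM in each library. Car9, below 10 reads in most libraries, was not tested within primed cells.

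NPC libraries of a group differed more from each other, and 0 of the 6 genes tested were called by limma voom, in either clone or between the clones. The background was 3.26% of 8335 genes in KO4, 7.2% in KO8 and 0.696% between the clones. At an unadjusted p under 0.05 there were 1 of 6 in KO4, 2 of 6 in KO8 and 3 of 6 between the clones, which were Ankrd37 (-0.97, adjusted p = 0.205), Eno3 (-0.33, adjusted p = 0.221) and Bpgm (0.33, adjusted p = 0.304). The counts rested on single libraries. Without KO8 library 1, KO4 had 1 higher, KO8 had 1 higher and 2 lower, and 2 were lower in KO8 than in KO4, and without KO8 library 2 there were 1 higher in each clone and 1 lower in KO8 than in KO4. The gene at an unadjusted p under 0.05 in KO4 was Ankrd37, with 14.1 and 25.2 RPM in WT, 27.3 and 36.8 in KO4 and 22.3 and 12.0 in KO8. Its log2 fold change of 0.74 in KO4 had an interval of 2 SE from 0.13 to 1.35 (adjusted p = 0.235). Bpgm, with 20.2 and 20.5 in WT and 29.5 and 27.5 in KO8, gave 0.48 in KO8 (SE 0.14, adjusted p = 0.0744). Eno3, with 31.0 and 28.6 in WT and 23.6 and 21.9 in KO8, gave -0.39 (SE 0.11, adjusted p = 0.0708). In both cases KO8 did not overlap WT, yet neither passed after adjustment. Eno2 (17.2 and 23.3 in WT, 21.8 and 29.7 in KO4, 26.2 and 15.8 in KO8) and Pfkfb4 (17.6 and 15.0, 11.3 and 13.8, 14.7 and 10.5) showed how wide the spread was.

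Base means set NPCs apart from the other stages in the direction of the clones, as 28 of 35 members had the lower mean in KO8, while 48.7% of all 11376 genes had the higher. This included all 9 enzymes from glucose to triose phosphate, at 0.839 to 0.993 of the KO4 table. A bound of 1.25-fold was reached by 0 members in favour of KO8 (3.84% of all genes) and by 1 in favour of KO4 (1.23% of all genes), which was Ankrd37, with a base mean of 433.1 in the KO4 table and 323.0 in the KO8 table.

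In CM cultures the clones took different courses. Of the 7 genes tested, 5 were higher in KO8 than in WT and 0 lower, where 12.8% of all 8332 genes were higher and 11.9% lower. KO4 had 2 of 7 higher and 0 lower, against 25.2% higher and 27.3% lower among all genes. The count for KO4 was 1 higher without WT library 2, KO4 library 2 or either KO8 library, and 1 lower without WT library 1 or either KO8 library. Only Aldoc was higher in both clones, as were 4.09% of all genes. Between the clones, 5 of 7 were higher in KO8 and 1 lower, against 27.2% and 24% of all genes tested. Differences between the clones were thus common among the genes tested, which leave out those with a base mean of 1000 or more.

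Ndrg1 had 17.6 and 17.1 RPM in WT, 12.2 and 13.1 in KO4 and 48.0 and 63.2 in KO8, with no overlap among the 3 genotypes. Its log2 fold change was 1.67 in KO8 (SE 0.15, adjusted p = 7.69e-06) and -0.45 in KO4 (SE 0.20, adjusted p = 0.0717), and the clones differed by 2.12 (SE 0.17, adjusted p = 8.5e-07). Pfkfb4 (chromosome 9, 108893947 to 108934737, plus strand) had 8.20 and 9.86 in WT, 9.54 and 12.1 in KO4 and 28.7 and 27.2 in KO8. Only KO8 stood apart, with 1.63 against WT (SE 0.15, adjusted p = 1.04e-05), 0.26 for KO4 (SE 0.18, adjusted p = 0.248) and 1.37 between the clones (SE 0.15, adjusted p = 8.67e-06). Ankrd37 had 11.2 and 8.48 in WT, 11.9 and 13.9 in KO4 and 25.1 and 23.9 in KO8. It rose by 1.33 in KO8 (SE 0.15, adjusted p = 4.98e-05), had 0.41 in KO4 (SE 0.17, adjusted p = 0.0628) and differed by 0.92 between the clones (SE 0.14, adjusted p = 0.000164).

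Aldoc had 18.7 and 14.8 RPM in WT, 20.2 and 24.0 in KO4 and 37.7 and 40.5 in KO8, a stepwise order without overlap. It rose by 1.24 in KO8 (SE 0.13, adjusted p = 2.15e-05) and by 0.40 in KO4 (SE 0.14, adjusted p = 0.0314), with 0.83 between the clones (SE 0.12, adjusted p = 8.93e-05). The call in KO4 was lost in 7 of 14 other settings, lowest without WT library 2 (0.22, adjusted p = 0.239), and also without KO4 library 2 or either KO8 library. Eno2 (chromosome 6, 124710071 to 124719691, minus strand) had 6.55 and 9.86 in WT, 6.54 and 6.62 in KO4 and 12.8 and 12.5 in KO8. It gave 0.64 in KO8 (SE 0.19, adjusted p = 0.0234), which was lost without WT library 1 (0.35, adjusted p = 0.167) or either KO8 library, and 0.94 between the clones (SE 0.21, adjusted p = 0.00212).

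Bpgm (chromosome 6, 34426207 to 34455613, plus strand) went the other way, with 30.2 and 28.2 RPM in WT, 39.5 and 37.1 in KO4 and 27.7 and 27.2 in KO8. It rose by 0.39 in KO4 (SE 0.09, adjusted p = 0.00268), gave -0.09 in KO8 (SE 0.10, adjusted p = 0.550) and was lower in KO8 than in KO4 by a log2 difference of -0.48 (SE 0.09, adjusted p = 0.000829). Car9, at 0.780 to 1.54 in all libraries, was called in no contrast.

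**Figure D3:**
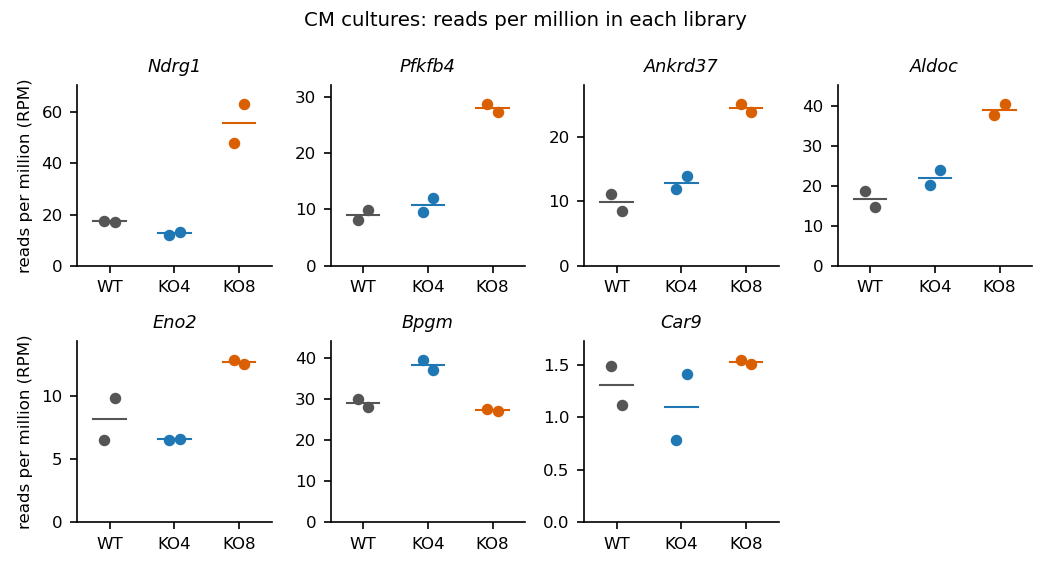
RPM of the 7 tested genes in each CM library (points), with the mean of each genotype (line, n = 2), on axes that start at 0. In KO8, Ndrg1, Pfkfb4, Ankrd37, Aldoc and Eno2 lie above all WT and KO4 libraries, and Bpgm is highest in KO4.

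The 20 genes without recovered reads, and those recovered only elsewhere, could be followed in CMs through the base means, with no replicate error. Of 35 members with a base mean of at least 100, 26 had the higher mean in KO8, where 50.7% of all 11404 genes did, and the median ratio was 1.14 against 1.00 over all genes. A bound of 1.25-fold in favour of KO8 was reached by 14 of 35, where 14.8% of all genes reached it, and in favour of KO4 by 1 of 35, where 10.6% did. The count also covers genes tested above from reads solved out of these base means. Ndrg1, Pfkfb4, Ankrd37, Aldoc and Eno2 are among the 14, and for them it is no separate result. Hypoxia-induced genes made up 8 of the 14. They were Ndrg1 (2.45), P4ha2 (1.98), Egln3 (1.61), Ankrd37 (1.53), the mitophagy receptor Bnip3 (1.43), P4ha1 (1.42), Vegfa (1.38) and Egln1 (1.31). Ddit4, an inhibitor of growth signalling through mTOR, was the only hypoxia-induced gene above the limit that did not (0.996, base means 3166 and 3245). P4ha2 had base means of 593.6 with KO4 and 1210 with KO8, and Vegfa 1910 and 2720.

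The other 6 members past this bound were Pfkfb4 (1.88), Slc16a1 (1.70), Eno3 (1.43), Eno2 (1.42), Hk1 (1.32) and Aldoc, with base means of 347.6 and 522.1. The abundant enzymes did not reach the bound, which sets no upper limit on their difference. Ldha had a ratio of 0.998, Gpi1 1.00, Hk2 1.01, Tpi1 1.05, Aldoa 1.06 and Pgk1 1.10, and Gapdh, Pgam1 and Eno1 were below 1, at 0.879, 0.923 and 0.854. Ldhb was the only member past the bound in favour of KO4, at least 1.77-fold higher there (base means 1941 and 1126).

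**Figure D4:**
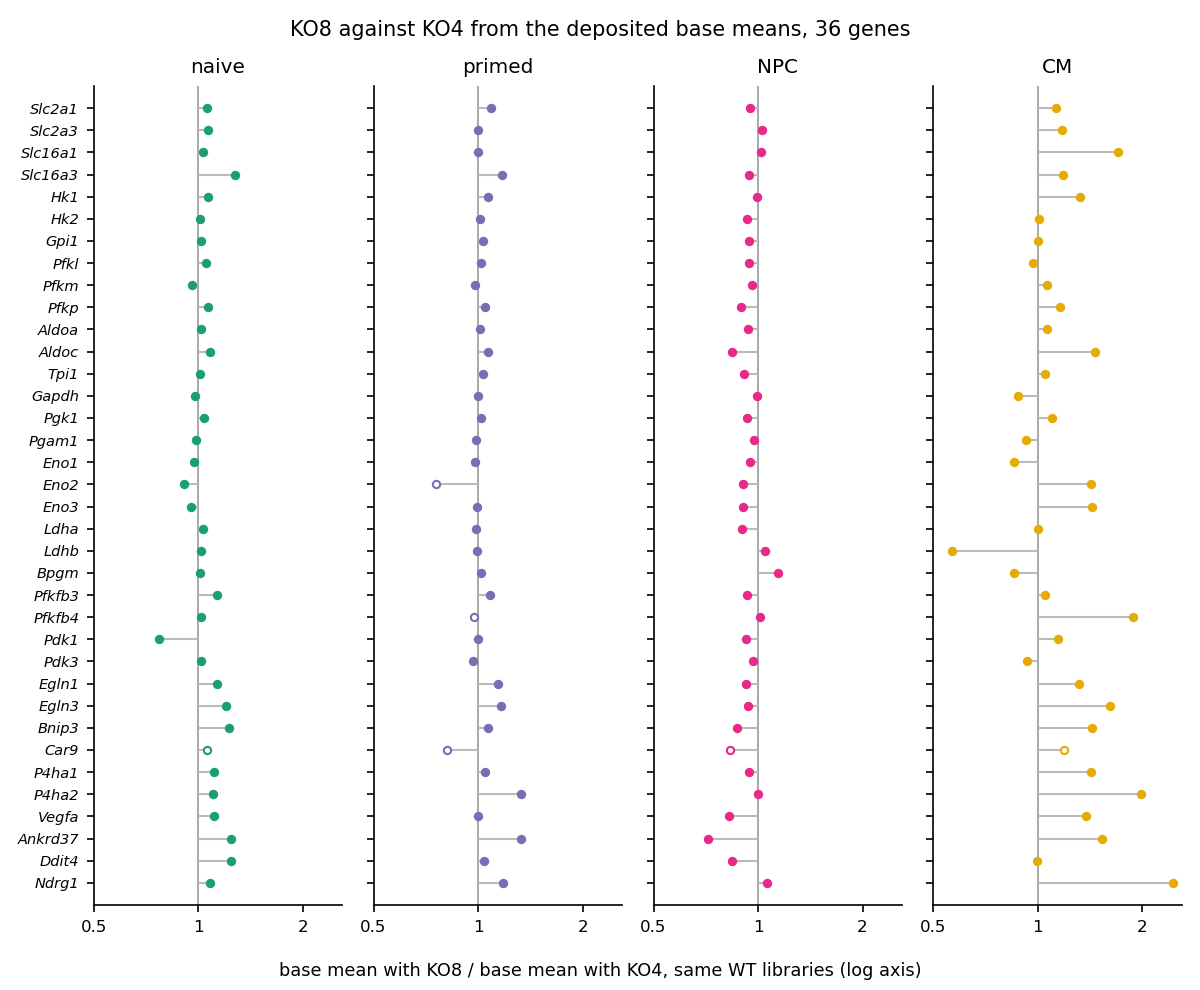
Ratio of the base mean in the KO8 table to that in the KO4 table for each of the 36 genes, after matching the scales through the shared WT libraries, at each stage on a log axis, with open points for base means under 100. A point right of 1 means a higher mean in KO8 by at least that ratio, without replicate error. In CMs Ndrg1 (2.45), P4ha2 (1.98) and Pfkfb4 (1.88) lie farthest to the right and Ldhb (0.564) farthest to the left, while in NPCs most points lie slightly left of 1.

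Markers of several cell types moved between the same CM tables. In the KO4 and KO8 table respectively, cardiomyocyte markers (12 genes) summed to 2010 and 2950 RPM, mesenchymal markers (7) to 1050 and 3220, endothelial and blood markers (8) to 630 and 1530, and endoderm markers (6) to 184 and 391. Neural markers (9) summed to 553 and 211 and naive pluripotency markers (8) to 535 and 256. Sox2 had the highest base mean of the naive list with either clone. Of these markers 1, in the endothelial and blood list, was listed at 0. Against WT, the 2 cardiomyocyte markers that could be tested were lower in both clones, Myl2 by log2 fold changes of -9.70 in KO4 and -2.44 in KO8 and Tnni3 by -3.58 and -2.09. The 1 tested endothelial and blood marker was lower in KO4 (-6.78) and higher in KO8 (3.25). Of 2 tested mesenchymal markers 1 was lower in KO4 and 1 higher in KO8, and of 3 tested endoderm markers 2 were lower in KO4 and 1 higher in KO8. Of 4 tested neural markers 3 were higher in KO4 and 2 lower in KO8, and of 5 tested naive markers 3 were higher and 1 lower in KO4 and 4 lower in KO8. The part of cell composition in the differences of the glycolytic and hypoxia-induced genes was not tested.

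Some members that stood apart in CMs hold ACGTG, 1 form of the core of a hypoxia response element, near their start. Other forms of the core were not searched. RefSeq promoter windows on GRCm38.p6, from 250 bases before to 50 bases after a start, were matched by symbol for 34 of the 36 genes. ACGTG, read on either strand, was found for 23 of the 34, where 21.8% of 27025 genes held it. By window it was in 26 of 47 (55.3%), against 19.6% of 32851 windows. The members' windows are richer in G and C (median 62%, against 52.7%). Among windows of 56.5 to 67.7% G and C, 12 of 23 member windows held the letters, against 26% of 8282. The members were chosen as glycolytic or hypoxia-induced genes, so this share cannot be read as a result about the clones or CMs. It was not compared between members that stood apart in CMs and the others. A match is a description and no evidence of binding. The stretches before the start of the 4 matched members with letters found there and a base mean ratio of at least 1.5 in CMs are shown, 250 bases each on the strand of the gene, with the motif in capitals. They are Ankrd37 (chr8:45999851-46000100, minus strand, 241 and 6 bases before the start), P4ha2 (chr11:54100674-54100923, plus strand, 78 bases before), Slc16a1 (chr3:104638414-104638663, plus strand, where the letters overlap on both strands 200 and 199 bases before) and Egln3 (chr12:54203875-54204124, minus strand, 229 bases before).
Ankrd37: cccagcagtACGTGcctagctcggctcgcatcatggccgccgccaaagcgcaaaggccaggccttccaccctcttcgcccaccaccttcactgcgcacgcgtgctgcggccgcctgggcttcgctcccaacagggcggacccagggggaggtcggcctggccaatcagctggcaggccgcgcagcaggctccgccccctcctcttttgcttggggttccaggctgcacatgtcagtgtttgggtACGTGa
P4ha2: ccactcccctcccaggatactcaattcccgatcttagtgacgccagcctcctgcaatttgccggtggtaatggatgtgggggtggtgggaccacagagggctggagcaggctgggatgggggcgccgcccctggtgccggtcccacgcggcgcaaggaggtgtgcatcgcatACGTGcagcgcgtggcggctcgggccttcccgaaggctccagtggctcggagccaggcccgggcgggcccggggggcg
Slc16a1: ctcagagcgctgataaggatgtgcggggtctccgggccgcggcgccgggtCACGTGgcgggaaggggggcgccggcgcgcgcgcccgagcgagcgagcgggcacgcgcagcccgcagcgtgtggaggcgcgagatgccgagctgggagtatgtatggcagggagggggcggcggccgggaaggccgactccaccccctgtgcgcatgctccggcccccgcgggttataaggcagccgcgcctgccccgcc
Egln3: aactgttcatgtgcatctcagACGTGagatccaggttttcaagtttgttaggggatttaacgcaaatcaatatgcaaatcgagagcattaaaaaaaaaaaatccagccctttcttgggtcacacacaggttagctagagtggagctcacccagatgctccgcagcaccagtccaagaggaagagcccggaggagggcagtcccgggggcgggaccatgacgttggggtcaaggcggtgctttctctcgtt
The same letters were also found for genes below that ratio, such as Ldha, with 5 matches in a window, and were not found for Pfkfb4, Eno2 or Eno3.

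Whether a clone's effect changed with the stage was tested on the difference itself. For the 5 genes of the fit over primed, NPC and CM libraries, 3 of the 30 contrasts were called, and all 3 were the effect of KO8 in CMs minus that in NPCs, which 12.6% of all genes passed. Pfkfb4 had 1.98 (SE 0.23, adjusted p = 1.56e-05), Ankrd37 1.55 (SE 0.37, adjusted p = 0.00983) and Bpgm -0.60 (SE 0.14, adjusted p = 0.00908). Ankrd37 lost the call without NPC WT library 2 (1.11, adjusted p = 0.102) or CM WT library 2 (1.35, adjusted p = 0.0519). None of the 5 was called for the effect of KO4 between these stages (26.6% of all genes) or for either effect from primed to CM (KO4 22.4%, KO8 3.88%) or from primed to NPC (KO4 0.405%, KO8 1.06%). At an unadjusted p under 0.05 there were 8 of the 30. Without NPC WT library 2 or CM WT library 2 only 1 contrast was called higher instead of 2, and without NPC KO8 library 1 or 2 there were 5 or 4. A fit over the primed and CM libraries alone called the effect from primed to CM for Ankrd37 in KO4 (1.22, adjusted p = 0.00393) and KO8 (1.18, adjusted p = 0.00537) and for Pfkfb4 in KO8 (1.49, adjusted p = 0.0210), where the fit over 3 stages did not (adjusted p = 0.156, 0.187 and 0.0748).

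Genes with recovered reads at only 2 of these stages were fitted over those 2. Ndrg1 and Aldoc were low in both primed clones and, in KO8, high in CMs. The effect in CMs exceeded that in primed cells by 2.50 for Ndrg1 in KO8 (SE 0.24, adjusted p = 6.1e-06) and by 1.67 for Aldoc in KO8 (SE 0.19, adjusted p = 3.05e-05), in a contrast that 7.35% of all genes passed. In KO4 the difference was 1.16 for Ndrg1 (SE 0.30, adjusted p = 0.00738) and 1.07 for Aldoc (SE 0.20, adjusted p = 0.000678), which 29.6% of all genes passed. For Eno3 the effect of KO8 was lower in NPCs than in primed cells by a log2 difference of -0.60 (SE 0.12, adjusted p = 0.0358, against 0.922% of all genes), a call lost in 10 of 14 other settings, without any single library of primed cells or of the WT and KO4 NPCs. Its effect of KO4 was not called (-0.30, adjusted p = 0.305, against 0.426% of all genes).

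**Figure D5:**
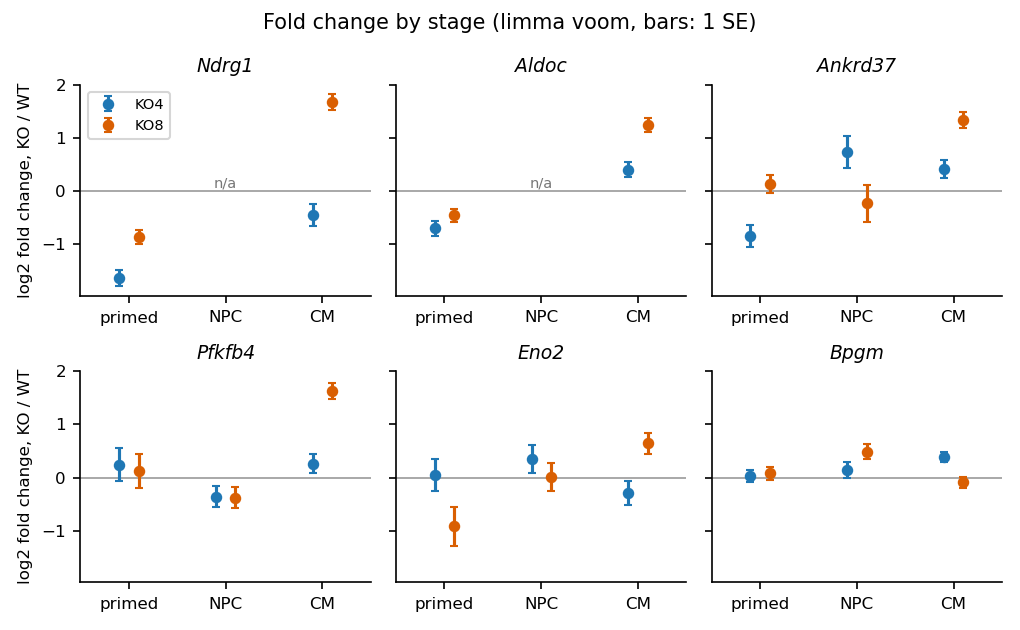
Log2 fold change of each clone over WT at each stage (points) with 1 SE (bars) from limma voom for 6 genes, with n/a where reads could not be recovered. Ndrg1 and Aldoc lie below 0 in both primed clones, and in CMs KO8 lies at 1.67 and 1.24.

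Other genes of the pathway were counted from lists. Of 38 further isozymes and pyruvate genes, 19 were tested in primed cells, with 2 higher and 2 lower in each clone, where 9.16% of all genes were higher and 9.30% lower in KO4 and 7.75% and 6.18% in KO8. Those higher in both were Pdp2, a pyruvate dehydrogenase phosphatase on chromosome 8 (0.67 and 0.57), and Ldhd, which oxidises D-lactate and also lies there (0.93 and 1.30). In CMs 21 were tested, with 2 higher and 9 lower in KO4, where 25.2% of all genes were higher and 27.3% lower, and 3 higher and 3 lower in KO8, where 12.8% were higher and 11.9% lower. Pdp2 was again higher in both (1.34 and 1.19), and Pfkfb2 (-1.70 and -0.93) and Pdk4 (-2.10 and -1.28), a kinase that shuts pyruvate dehydrogenase in heart and fasting muscle, were lower in both. Of 40 further hypoxia-induced genes, 23 were tested in primed cells, with 2 higher and 5 lower in KO4 and 2 higher and 3 lower in KO8, against the same shares of all genes in primed cells. Loxl2 (-1.44 and -0.80), Stc2 (-0.55 and -0.51) and the histone demethylase Kdm4b (-0.58 and -0.25) were lower in both. In CMs 13 were tested, with 5 higher and 4 lower in KO4 and 6 higher and 0 lower in KO8, against the CM shares of all genes given above. Tmem45a (1.15 and 1.81), the glycogen branching enzyme Gbe1 (0.85 and 0.52) and Stc2 (0.54 and 0.44) were among 4 higher in both. Stc2, like Ndrg1 and Aldoc, was thus lower in primed KO8 cells and higher in KO8 CMs. Of 17 genes that make up or control HIF, 4 could be tested in primed cells, with 1 higher and 1 lower in KO4 and 0 in KO8. Another test was possible for 1 in CMs, which was called in neither clone. The shares of all genes in these comparisons are those given above. In NPCs 20 further isozymes and 11 further hypoxia-induced genes were tested, and 1 of the latter was lower in KO8, as were 3.04% of all genes. The pentose phosphate pathway (7 genes) had 2 tested in primed cells and 1 in CMs, where 1 was higher in KO8 at each stage. Among all genes 7.75% were higher in KO8 in primed cells and 12.8% in CMs. So few tested genes give no result for the pathway.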

How the data were processed

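mRNA was sequenced in 27 libraries. Per the labels, the authors trimmed reads with Trim Galore 0.6.7, aligned them to mm9 with HISAT2 2.2, assigned them to genes with featureCounts and ran DESeq2 1.46.0 on each clone and WT. The settings for strand and for reads matching several places were not stated. Of the deposited columns only the base mean was used, a signal that the authors obtained by averaging normalized counts of WT and clone libraries. The other columns hold the authors' log2 fold changes, standard errors, Wald statistics and p-values and were not used.

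Genes with a single read in a library gave its size factor and approximate depth. Whole reads per library were then solved from the 10 significant digits of the base means of both tables of a stage (Python 3.11.15, numpy 2.4.6, numba 0.67.0). WT libraries are those in both tables. A solution was kept where it was 1000 times more likely than any other under both a narrow and a wide spread between replicates, up to a base mean of 50 in naive cells and 1000 elsewhere. It was reached for 99.34% of genes under this limit in naive cells, 98.62% in primed cells, 88.25% in NPCs and 89.85% in CMs, and for 3.54% of NPC and 17.4% of CM genes between 700 and 1000. Libraries carry no replicate number and were ordered by size factor.

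Reads were tested with limma voom (limma 3.58.1, R 4.3.3) after median-of-ratios scaling, with the 3 genotypes of a stage in 1 fit, at least 10 reads in 2 libraries (3 in naive cells), and Benjamini-Hochberg adjustment over all genes tested, called at adjusted p under 0.05. The recovery and the test were checked on simulated data. Negative binomial count tests were not run, because the counts were solved rather than deposited. The design had named limma voom for this case. Precision is set by the reads, and 2 libraries per group leave small changes undetectable. Genes were placed by mm9 annotation (GENCODE vM1), and exon lengths come from there. All 36 members were named where tested, those called with every library, and up to 3 genes of each other list by adjusted p. Members and lists were chosen with earlier results of these data known. Other scalings, filters, models, single libraries left out and a minimum fold change were tried.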

Additional observations from a re-analysis of the deposited data

Results flagged for a closer look

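Listed, with values only, are log2 differences between clones, or between stages in a clone's effect, that passed limma voom's test of the difference itself. Genes recovered at primed, NPC and CM stages were listed from the fit over all of these stages. The effect of KO8 was larger in CMs than in NPCs for Pfkfb4 (1.98) and Ankrd37 (1.55) and smaller for Bpgm (-0.60). From primed cells to CMs the log2 fold change against WT increased for Ndrg1 in KO4 (1.16) and KO8 (2.50). Ndrg1 in KO4 had -1.64 in primed cells and -0.45 in CMs, and in KO8 it had -0.86 and 1.67. For Aldoc the increase was 1.07 in KO4 and 1.67 in KO8. From primed cells to NPCs the effect of KO8 was lower for Eno3 (-0.60). The call of Eno3 was lost in 10 of 14 other settings, and that of Ankrd37 between NPCs and CMs in 2 of 20.

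Between the clones (KO8 minus KO4), primed cells differed in Ankrd37 (0.98), Ndrg1 (0.79), P4ha2 (0.77) and Egln1 (0.36), none of which held without primed KO8 library 2. CMs differed in Ndrg1 (2.12), Pfkfb4 (1.37), Eno2 (0.94), Ankrd37 (0.92), Aldoc (0.83) and Bpgm (-0.48), all of which held without any single library. Groups of 2 or 3 libraries are too small for a test of outlying libraries.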

How the results depend on the processing

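No paired analysis was possible because the libraries solved from the base means carry no replicate number. No result reversed, and among single-gene calls 630 of 691 comparisons with another setting stayed past the threshold. Called members that moved by over 1.5 times were as follows, and the cause was not tested. A minimum absolute log2 fold change of 0.5 left 2 lower in primed KO8, 0 higher in CM KO4 and 0 lower in CM KO8 than in KO4. Without the filter on low counts, 0 were higher in primed KO8 than in KO4 and 1 was higher in CM KO4. With WT and the clone only, 1 was higher in NPC KO4, and 1 higher and 1 lower in CM KO4. With size factors of the deposited base means, chosen after seeing the data, 1 was higher and 1 lower in CM KO4, and limma-trend on log2(CPM + 0.5) or log2(CPM + 1) gave 1 lower there. With base means under 500 only, also added later, 1 was higher in CM KO4 and 0 lower in CM KO8 than in KO4.

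With 1 library left out in turn, the counts were 0 to 2 higher and 2 to 5 lower in primed KO8, 0 to 4 higher in primed KO8 than in KO4, 0 to 1 higher in NPC KO4, 0 to 1 higher and 0 to 2 lower in NPC KO8, 0 to 2 lower in NPC KO8 than in KO4, and 1 to 3 higher and 0 to 1 lower in CM KO4. WT stage differences gave 5 to 9 higher and 0 to 3 lower, and differences of the knockout effect 1 to 5 higher. A group left with 1 library was assumed to vary like the others.

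In naive cells the deposited size factors moved the median of all genes tested from 0.00 to 0.11 in KO8, and the calls from 169 higher and 151 lower to 210 and 102. Depth limits the tests to genes with few reads, so the most abundant enzymes have no replicate error here.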
